A study of Mus musculus with 16 samples.

Results

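The genes described here encode 10 enzymes that remove superoxide or peroxides. They are the glutathione peroxidases Gpx1, Gpx3, Gpx4, Gpx7 and Gpx8, the peroxiredoxin Prdx1, catalase (Cat) and the superoxide dismutases Sod1, Sod2 and Sod3. The list was proposed with earlier results of these data known, so its counts beside those of all genes describe it and test nothing. Its genes were found by symbol in the platform annotation of the array. Each of the 10 matched 1 probe set among the 19505 genes tested. The groups were 8 liver biopsies of a mouse model of nonalcoholic steatohepatitis (NASH), in which a fatty liver is inflamed, and 8 control liver biopsies. All 16 came from mice of the C57BL/6 strain, and no other allele or agent is given for either group. The labels do not say how the model was induced, and they give no age, sex, diet or time of collection. Nothing in them ties each biopsy to a separate mouse, so the p-values reflect sample-to-sample spread that may be technical. The series title names stimulation of soluble guanylate cyclase, and neither group is labelled with such a treatment.

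Superoxide that leaks from electron transport or is made by oxidases is turned into hydrogen peroxide by the superoxide dismutases, which differ in where they work: Sod1 mainly in the cytosol, Sod2 in the mitochondrial matrix and Sod3 outside the cell. Hydrogen peroxide is then broken down by catalase in peroxisomes, by glutathione peroxidases at the expense of glutathione, and by peroxiredoxins at the expense of thioredoxin. Gpx1, Gpx3 and Gpx4 carry selenocysteine in the active site, whereas Gpx7 and Gpx8 carry cysteine and sit in the endoplasmic reticulum. Hepatocytes hold large amounts of catalase and Gpx1, because their peroxisomes and mitochondria oxidise much fat.

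In the NASH model livers 7 of the 10 genes were higher and 0 were lower. The largest difference was that of Gpx3, the secreted glutathione peroxidase, at 3.56-fold. Gpx7 rose by 2.08-fold and Gpx4 by 1.98-fold, and Gpx8 also rose, but 6 of its 8 control values lay below the background floor, so its size is not ranked here. Prdx1 rose by 1.51-fold, Sod3 by 1.49-fold and Gpx1 by 1.18-fold. Cat, Sod1 and Sod2 did not pass the test. Levels are log2 signals of a probe set, a difference is the NASH model mean minus the control mean on the log2 scale, and a gene counted as higher or lower when limma's p, adjusted over all genes by Benjamini-Hochberg, was under 0.05. Of all genes tested 26.6% were called in either direction, 13.2% as higher and 13.4% as lower. The median difference of the 10 genes was 0.59, beside -0.04 for all genes. Every NASH model sample lay above every control for 4 of the 10 genes, beside 5.65% of all genes, and below every control for 0 of the 10, beside 3.89%. A called rise of 2-fold or more was found for 3 of the 10 (Gpx3, Gpx7 and, against controls mostly below the floor, Gpx8), beside 4.02% of all genes.

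**Figure D1:**
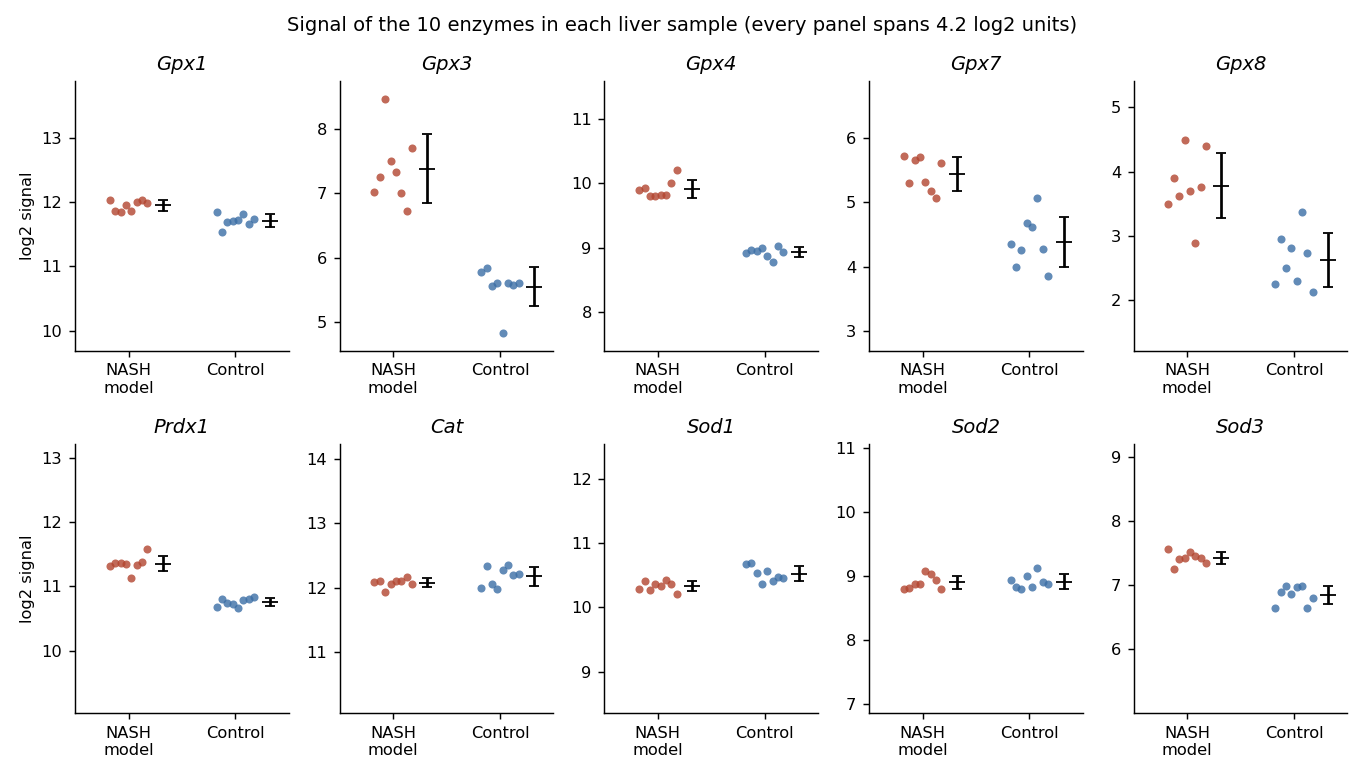
Log2 signal (y axis) of the 10 enzymes in the 8 NASH model samples (left in each panel) and the 8 control samples (right). Each point is 1 sample, the bar is the group mean with its SD, and every panel spans the same number of log2 units, so that the gaps of Gpx3, Gpx4, Prdx1 and Sod3, whose groups do not overlap, can be compared with the overlapping groups of Cat and Sod2.

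On a principal component analysis of all genes the NASH model samples lay between 24.2 and 49.6 on the first component (45.3% of the variance), and the controls between -40.4 and -31.4. NASH model 2 (45.9) and NASH model 7 (49.6) lay farthest from the controls, and Gpx3, Ccs and the peroxins are also given without them below. The tissue label was borne out by hepatocyte markers: 0 of 10 measured ones lay below the background floor, which is 2.89 on the log2 scale. Their mean level ran from 11.24 to 11.38 in NASH model samples and from 11.36 to 11.47 in controls, with 0 markers higher and 2 lower (1 or 2 were higher under 5 alternatives). The 2 lower ones were Hnf4a (-0.66 ± 0.10) and F7 (-0.84 ± 0.11), whose groups did not overlap. Others lay near the highest deposited value of 12.74, such as Alb, with means of 12.64 in NASH model samples and 12.62 in controls. In these whole biopsies a change in the number of cells of a type and a change in RNA per cell cannot be told apart. Markers of recruited macrophages were higher for 11 of 11, with a mean level of 6.74 to 7.20 in NASH model samples and 3.88 to 4.58 in controls. That list is not specific to recruited cells, since it holds Adgre1 and Csf1r, with means of 6.12 and 7.42 in controls. Stellate cell and fibroblast markers were higher for 10 of 11 (6.94 to 7.70, against 5.36 to 5.86 in controls) and cholangiocyte markers for 5 of 7 (3.61 to 5.95, against 3.39 to 4.08). Kupffer cell markers were higher for 1 and lower for 4 of 7 (5.38 to 6.23, against 6.35 to 7.67), and endothelial markers lower for 5 of 8 (6.20 to 6.68, against 6.51 to 6.94). Lymphocyte markers were higher for 3 and lower for 1 of 7 (3.26 to 3.62, against 3.06 to 3.49), and neutrophil markers higher for 2 of 7 (3.16 to 4.16, against 2.53 to 3.82). Of 3 measured red blood cell markers 2 were lower (4.05 to 4.49, against 4.55 to 4.91). Markers below the floor in all 16 samples were Mpo of the neutrophil list and Epb42 of the red blood cell list. These marker counts moved under some alternatives. With the clock score the markers called higher were 1 for lymphocytes, 1 for neutrophils and 0 for Kupffer cells, and 1 red blood cell marker was lower. Neutrophil markers higher were also 1 without NASH model 2 and 7. With spike-in centring 3 endothelial markers and 1 red blood cell marker were lower, and 1 endothelial marker was higher without control 10. The part of these cell types in the enzyme results was not tested.

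Gpx3 encodes the glutathione peroxidase of plasma, which kidney makes in the largest amount. RefSeq (build GRCm38.p6, as for all gene positions here, since the sources used here give no build for the array) places it at chr11:54902854-54910387. Its log2 signal ran from 6.73 (NASH model 6) through a median of 7.29 to 8.47 (NASH model 2) in NASH model samples. In controls it ran from 4.82 (control 5) through a median of 5.61 to 5.84 (control 10). The groups did not overlap, and the lowest NASH model sample lay above the highest control. The means were 7.38 ± 0.54 and 5.55 ± 0.31 (SD, n = 8 each), a difference of 1.83 ± 0.20 (SE, adjusted p = 7.7e-07 in limma). NASH model 2 and 7 had the highest values of their group, and without them the difference was 1.60 ± 0.15. Without control 5, which lay 0.73 of the range of its group below the next control, it was 1.73 ± 0.19.

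Gpx4 encodes the peroxidase that reduces lipid hydroperoxides inside membranes and holds back ferroptosis, a form of cell death driven by lipid peroxides. It lies at chr10:80047166-80056439. NASH model samples ran from 9.80 (NASH model 2) through a median of 9.86 to 10.22 (NASH model 7), and controls from 8.77 (control 6) through a median of 8.94 to 9.03 (control 7). All 8 NASH model samples therefore lay above all controls, with little spread inside either group. The difference was 0.99 ± 0.08 (adjusted p = 1.9e-08 in limma), the smallest adjusted p among the 10 genes.

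Gpx1 encodes the main glutathione peroxidase of the cytosol and mitochondria, at chr9:108339080-108340342. It ran from 11.85 (NASH model 2) through a median of 11.97 to 12.04 in NASH model samples, and from 11.54 (control 10) through a median of 11.71 to 11.85 (control 1) in controls. The groups touched at 11.85, and 7 of 8 NASH model samples lay above every control. The highest deposited value was 12.74, so Gpx1 lay in the top part of the scale. That limits what the size of its difference can tell. The difference was 0.24 ± 0.07, with a 95% interval of 0.08 to 0.39 (adjusted p = 0.022 in limma). The call was lost with the values as deposited (0.19, adjusted p = 0.060), with arrays centred on their medians (0.11, adjusted p = 0.27) and with a clock score as covariate (0.24 ± 0.11, adjusted p = 0.17). Over all alternatives its difference stayed between 0.11 and 0.29.

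Gpx7 and Gpx8 encode the peroxidases of the endoplasmic reticulum, which use peroxide to help form disulfide bonds in newly made proteins. Gpx7 lies at chr4:108400217-108406713 and Gpx8 at chr13:113042757-113046430. Gpx7 ran from 5.06 (NASH model 6) through a median of 5.47 to 5.72 (NASH model 1a) in NASH model samples, and from 3.86 (control 9) through a median of 4.32 to 5.07 (control 6) in controls. NASH model 6 and control 6 nearly met, and the other 7 NASH model samples lay above every control. The difference of Gpx7 was 1.05 ± 0.16 (adjusted p = 3.2e-05 in limma).

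Gpx8 ran from 2.89 (NASH model 5) through a median of 3.73 to 4.49 (NASH model 3) in NASH model samples, and from 2.13 (control 9) through a median of 2.62 to 3.37 (control 6) in controls. Again 7 of 8 NASH model samples exceeded every control. The difference of Gpx8 was 1.15 ± 0.21 (adjusted p = 3.0e-04 in limma). Gpx8 was dim, with 1 NASH model sample and 6 controls below the floor of 2.89, so most of its control values lay at background level. Stellate cell and fibroblast markers were higher in the same biopsies (10 of 11, with the levels given above), and their part in the rises of Gpx7 and Gpx8 was not tested.

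Prdx1 encodes a cytosolic peroxiredoxin and was the only gene of its family among the 10. It lies at chr4:116685599-116700000. NASH model samples ran from 11.14 (NASH model 4) through a median of 11.35 to 11.58 (NASH model 7), and controls from 10.67 (control 5) through a median of 10.77 to 10.83 (control 9). The groups did not overlap, and the controls spanned a narrow range. The difference was 0.60 ± 0.08 (adjusted p = 5.3e-06 in limma).

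Cat encodes catalase and lies at chr2:103453904-103485153. It ran from 11.93 (NASH model 2) through a median of 12.09 to 12.17 (NASH model 6) in NASH model samples and from 11.98 (control 4) through a median of 12.20 to 12.35 (control 6) in controls. The groups overlapped, and the highest values were in controls. Signals of Cat lay near the highest deposited value of 12.74, which limits what the size of its difference can tell. The difference was -0.10 ± 0.08, with a 95% interval of -0.26 to 0.07, and did not pass (adjusted p = 0.42 in limma). With arrays centred on their medians it passed, at -0.26 (adjusted p = 0.019).

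The 3 superoxide dismutases did not all pass the test, Sod3 alone being called. Sod3 lies at chr5:52363804-52369738, Sod2 at chr17:13007839-13018119 and Sod1 at chr16:90220762-90226333. Sod3, the extracellular enzyme, ran from 7.25 (NASH model 1b) through a median of 7.43 to 7.56 (NASH model 1a) in NASH model samples, and from 6.64 through a median of 6.88 to 6.99 in controls. All NASH model samples lay above all controls, and the difference was 0.58 ± 0.08 (adjusted p = 2.2e-05 in limma). Sod2, the mitochondrial manganese enzyme, ran from 8.80 through a median of 8.88 to 9.08 (NASH model 4) in NASH model samples, and from 8.79 (control 3) through a median of 8.89 to 9.13 (control 6) in controls. Every NASH model sample lay within the range of the controls. Its difference was -0.01 ± 0.08, with a 95% interval of -0.18 to 0.15 (adjusted p = 0.94 in limma). Its sign turned in several alternatives, at most to 0.05 when arrays were centred on spike-in controls (adjusted p = 0.81). No alternative gave a call (lowest adjusted p = 0.24).

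Sod1, the copper and zinc enzyme, ran from 10.21 (NASH model 7) through a median of 10.35 to 10.43 (NASH model 5) in NASH model samples, and from 10.37 (control 4) through a median of 10.51 to 10.69 (control 10) in controls. Of the 8 NASH model samples 6 lay below every control. The difference was -0.19 ± 0.08 with a 95% interval of -0.35 to -0.03, and missed the threshold (adjusted p = 0.072 in limma). Before adjustment the limma p was 0.021, and an exact two-sided permutation test of this gene alone gave p = 0.0014, also unadjusted. That permutation test was run for every enzyme and is given here for Sod1 only. Sod1 was called lower with arrays centred on their medians (-0.26, adjusted p = 0.017), without the dimmest 40% of genes (adjusted p = 0.0301) and with the trend and robust options of eBayes (adjusted p = 0.011), and its difference was -0.08 (adjusted p = 0.58) when arrays were centred on spike-in controls.

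**Figure D2:**
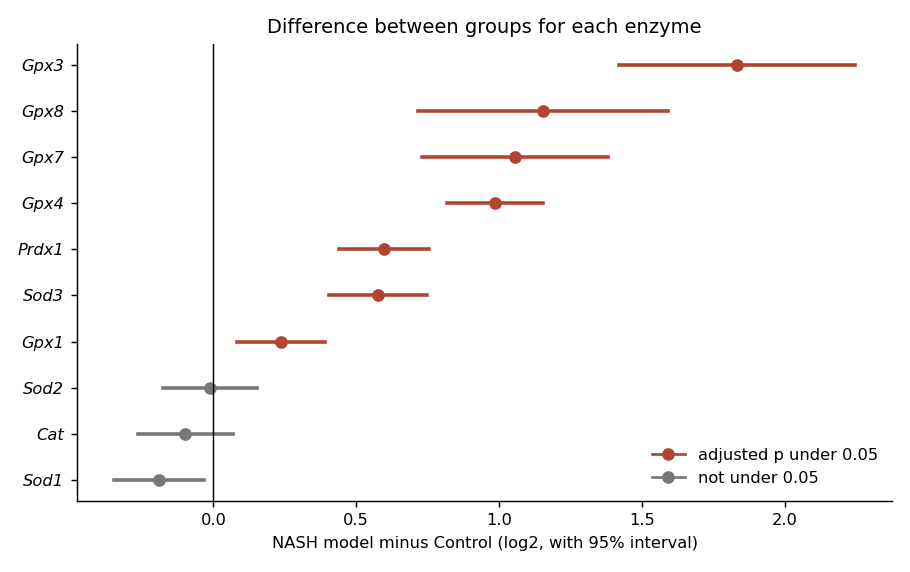
Difference NASH model minus control (x axis, log2) of each enzyme with its 95% interval, ordered by size. Gpx3 stands at 1.83, the intervals of the 7 called genes (red) lie above 0, and Cat, Sod1 and Sod2 (grey) did not pass after adjustment.

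The genes also differed in how much samples of the same group varied. The SD of Prdx1, Gpx4 and Gpx3 in NASH model samples was 1.91, 1.82 and 1.74 times that in controls, while for Cat, Sod1, Gpx7 and Sod3 it was 0.47, 0.66, 0.67 and 0.68 times. These ratios were not tested, and that of Cat is for signals near the top of the scale. Among controls, control 6 had the highest value for 5 of the 10 genes, namely Cat, Gpx7, Gpx8, Sod2 and Sod3. Leaving out any single sample changed none of the 10 calls.

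The scaling of the arrays mattered most for the genes with small differences. Of all calls 49.6% were higher as reported, 39.2% with arrays centred on their medians and 73.7% with centring on spike-in controls. The median difference of all genes was -0.04 as reported, -0.12 with arrays centred on their medians and 0.06 with centring on spike-in controls. Gpx3, Gpx4, Gpx7, Gpx8, Prdx1 and Sod3 were called higher under all 5 scalings.

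**Figure D3:**
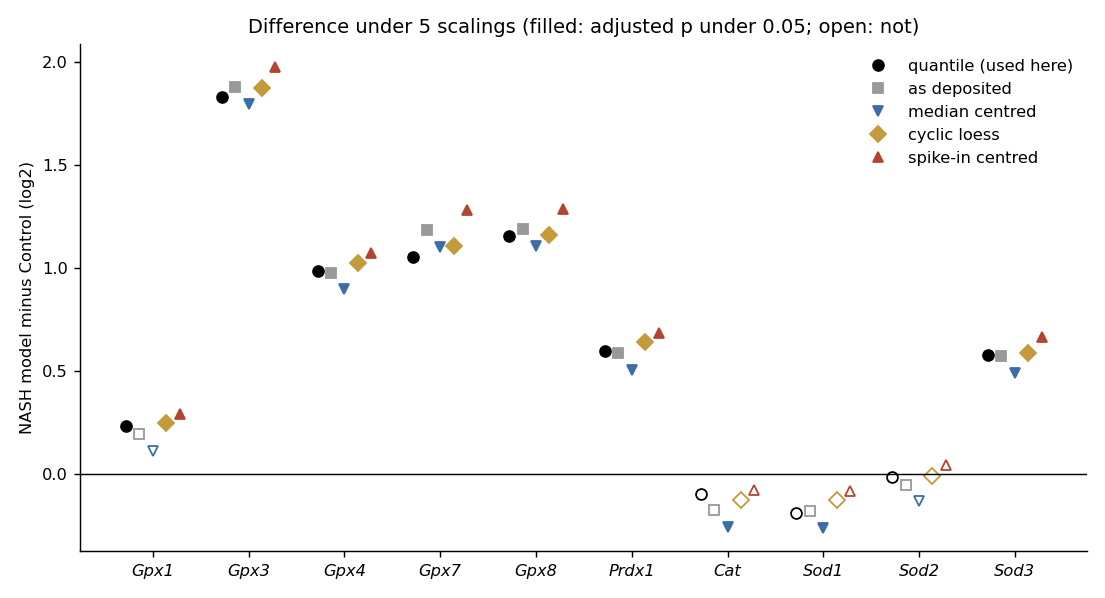
Difference NASH model minus control (y axis, log2) of the 10 enzymes under 5 scalings of the arrays. Filled symbols have an adjusted p under 0.05: Gpx3 to Gpx8, Prdx1 and Sod3 are filled throughout, Gpx1 is open with values as deposited and with median centring, and Cat and Sod1 are filled with median centring alone.

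Promoter windows from RefSeq (build GRCm38.p6, from 250 bases before to 50 after a transcript start) were held for 9 of the 10 genes, in 12 windows. Sod3 had none in the table used here. The windows were searched on both strands for the core of the antioxidant response element, TGACNNNGC, which the factor NRF2 binds. It was found in those of Prdx1 and Sod1, that is in 2 of the 12 windows, beside 12.4% of 32851 windows of all genes. The window of Prdx1, which rose, that of Sod1, which did not pass, and that of Gpx3, the gene with the largest rise, are shown for comparison, read 5′ to 3′ on the gene's strand. Capitals mark the core, which in both genes lies on the other strand, and Gpx3 has none.
Prdx1, chr4:116685349-116685648, plus strand: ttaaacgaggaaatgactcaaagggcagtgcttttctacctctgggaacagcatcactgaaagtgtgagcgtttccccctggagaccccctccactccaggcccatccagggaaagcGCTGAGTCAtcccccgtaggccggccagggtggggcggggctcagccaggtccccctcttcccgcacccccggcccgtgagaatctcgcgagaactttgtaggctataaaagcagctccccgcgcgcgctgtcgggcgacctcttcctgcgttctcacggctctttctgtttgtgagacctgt
Sod1, chr16:90220512-90220811, plus strand: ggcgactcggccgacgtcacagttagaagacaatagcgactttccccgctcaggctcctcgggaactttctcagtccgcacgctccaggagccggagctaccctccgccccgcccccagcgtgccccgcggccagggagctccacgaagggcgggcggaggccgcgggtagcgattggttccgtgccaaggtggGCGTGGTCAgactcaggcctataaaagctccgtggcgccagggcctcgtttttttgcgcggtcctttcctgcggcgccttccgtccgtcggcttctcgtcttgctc
Gpx3, chr11:54902604-54902903, plus strand: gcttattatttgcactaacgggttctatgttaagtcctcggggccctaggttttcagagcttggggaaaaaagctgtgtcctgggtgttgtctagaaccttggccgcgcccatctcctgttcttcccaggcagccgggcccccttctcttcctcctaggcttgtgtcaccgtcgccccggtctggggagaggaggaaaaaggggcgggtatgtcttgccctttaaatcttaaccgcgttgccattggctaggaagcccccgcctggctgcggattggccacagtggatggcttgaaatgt

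Relative to the transcript start the core began at position -133 in Prdx1 and at -56 in Sod1. In Prdx1 it overlaps the letters TGANTCA, to which AP-1 factors bind. The same motif also begins at position -237 there, outside the core. It was in 7.81% of all windows and in no other member's window. The GC box GGGCGG, bound by Sp1, was found in 10 of the 12 windows, beside 35.7% of all windows. Overlapping windows of Gpx4 hold the same boxes and were each counted. Among the 9 genes Gpx8 alone had none, in a window with 45.3% G and C bases. The median of all windows was 52.7%, while Gpx1 stood at 47.0% and the other windows ran from 56.3% (Gpx3) to 68.3% (Gpx4). The part of base composition in the GC box count was not tested. A match of letters is a description and does not show that a factor binds there.

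Genes that feed, repair or surround these enzymes were counted in the same fit, by list. Of the other peroxidases 2 of 6 measured were higher and 0 lower, with a median difference of 0.24. Prdx3, the mitochondrial peroxiredoxin, rose by 0.47 ± 0.09 (adjusted p = 4.7e-04 in limma), with no overlap between groups. Prdx2, the cytosolic one that is abundant in red blood cells, rose by 0.27 ± 0.07 (adjusted p = 0.0096), a call lost with median centring (0.16, adjusted p = 0.12) and with the clock score (0.25, adjusted p = 0.15).

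Of 20 genes that supply electrons to the peroxidases or service them, 8 were higher and 4 lower, with a median of 0.01. Srxn1, sulfiredoxin, which repairs overoxidised peroxiredoxins, stood at 7.41 to 8.31 in NASH model samples, against 5.69 to 6.22 in controls. That is a 3.67-fold rise (1.87 ± 0.13, adjusted p = 1.1e-09 in limma), as large as that of Gpx3. Idh2, a mitochondrial source of NADPH, rose by 1.49 ± 0.08 (2.80-fold), and Gss, glutathione synthetase, by 0.86 ± 0.09 (1.81-fold). Gsr, the reductase that regenerates glutathione, rose by 0.47 ± 0.08. In the other direction Ccs, the chaperone that loads copper into Sod1, fell by 0.86 ± 0.15 (adjusted p = 1.7e-04 in limma). It stood at 6.22 to 7.38 in NASH model samples, against 7.71 to 7.93 in controls, with no overlap. Without NASH model 2 and 7 the Ccs difference was -0.65. Gclc, Gclm and Idh1 of the same list were not called (-0.04 ± 0.14, 0.09 ± 0.08 and -0.003 ± 0.07). Ccs, Gsr, Gclc, Gclm and Idh1 were named after their values were seen. The lower count was 2 in place of 4 with spike-in centring and with the clock score.

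The selenocysteine list, whose products serve Gpx1, Gpx3 and Gpx4, had 2 of 11 genes higher and 3 lower, with a median of 0.00. Scly, the lyase that recovers selenium, fell by 0.67 ± 0.11, and Sephs2, which makes the selenium donor, fell by 0.56 ± 0.09 (adjusted p = 1.2e-04 and 5.3e-05 in limma). Both had groups that did not overlap. Sars, the synthetase that charges the transfer RNA with serine, rose by 0.42 ± 0.11, a call lost with the clock score (adjusted p = 0.059). The higher count of 2 was 1 under 3 other scalings and without NASH model 2 and 7, and 0 with the clock score.

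Of 14 measured oxidases that form peroxide 1 was higher and 4 lower, with a median of -0.10. Hao1, the peroxisomal glycolate oxidase of liver, fell by 1.21 ± 0.11 and Pipox, the peroxisomal sarcosine oxidase, by 0.90 ± 0.09, while the aldehyde oxidase Aox1 rose by 0.66 ± 0.10. Groups did not overlap for any of these 3 genes. The lower count was 2 with the clock score, and the higher count was 2 with values as deposited or spike-in centring, with array weights, with NASH model 1a and 1b averaged or left out, and without control 3, control 5, control 10 or NASH model 1a.

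Of 12 measured peroxins, which build the peroxisome and import catalase into it, 0 were higher and 5 lower, with a median of -0.28. Pex26 fell by 0.62 ± 0.18, Pex6 by 0.53 ± 0.17 and Pex5, the import receptor, by 0.46 ± 0.13 (adjusted p = 0.013, 0.025 and 0.013 in limma). The count of lower peroxins was unstable, at 10 with median centring, 3 with values as deposited or without NASH model 2 and 7, and 1 with spike-in centring or the clock score. With spike-in centring or the clock score none of these 3 genes was called. With values as deposited neither Pex26 nor Pex6 was (adjusted p = 0.054 and 0.057), and without NASH model 2 and 7 neither Pex6 nor Pex5 was (adjusted p = 0.13 and 0.053), while Pex26 stood at -0.46. Pex6 was also not called without control 10, NASH model 2 or NASH model 7 (adjusted p = 0.051, 0.057 and 0.056).

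**Figure D4:**
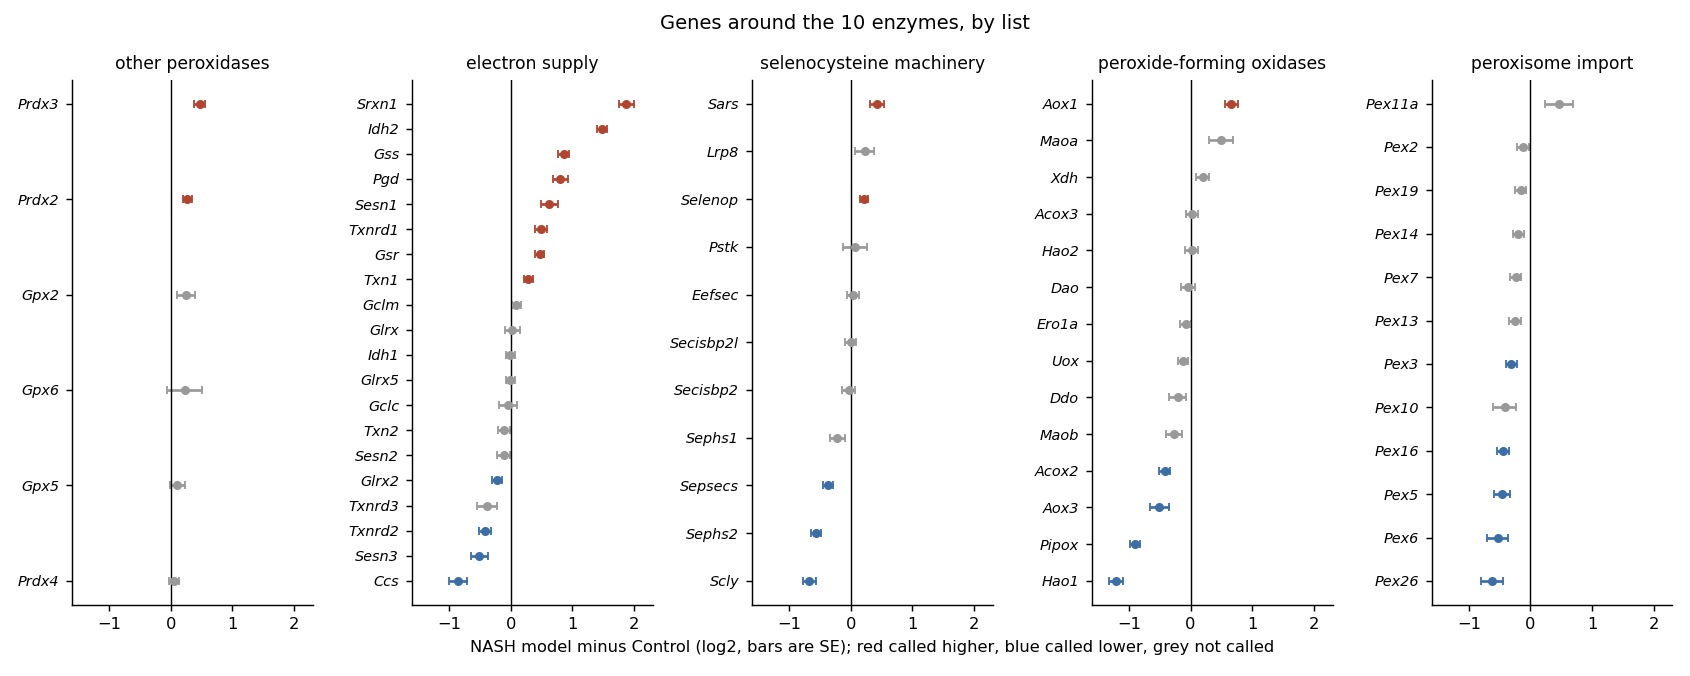
Difference NASH model minus control (x axis, log2, bars are SE) of the measured genes of 5 lists around the enzymes. Red genes were called higher, blue genes lower and grey genes neither. Srxn1 at 1.87 and Idh2 at 1.49 lie farthest to the right, and Hao1 at -1.21 farthest to the left.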

How the data were processed

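Liver RNA of 16 samples was measured on 1-colour arrays by the standard Affymetrix protocol, per the labels' protocols. The authors deposited log2 values for 29129 probe sets and the sources used here do not name the software. Column medians differed by 0.14, above a limit of 0.1, so the values were quantile normalized, which moved none by more than 0.16. Gene symbols came from the platform annotation, and the brightest probe set was kept for each of 19505 genes. Groups were compared with limma 3.58.1 in R 4.3.3 (lmFit and eBayes, two-sided, group as the only term). The step was also run on simulated data with independent noise for each gene. Real arrays need not have such noise, so that run does not test the calls given here.

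The floor of 2.89 is the 95th percentile of 1410 olfactory and vomeronasal receptor genes. The number of arrays limits the precision. Members, lists and rules were chosen with earlier results of these data known. Named were all 10 members and the 3 called genes with the largest differences in each of the 5 partner lists. Marker lists are given by counts, with single genes named for limits. List members without a probe set were not used. Alternatives were other scalings, leaving out the dimmest 40% of genes, averaging probe sets, eBayes options, array weights, NASH model 1a and 1b averaged or left out, omission of NASH model 2 and 7 or of each sample, and a replicate block. The clock score, the first within-group component of circadian clock genes, was added after seeing the data. NASH model 1a and 1b, which share a number, differed as much as other pairs (SD of gene differences 0.387, against 0.340 to 0.466 in 27 pairs) and were kept apart.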

Additional observations from a re-analysis of the deposited data

Results flagged for a closer look

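Gpx3 in control 5 lay at 4.82, apart from the next lowest control at 5.56, while the other controls reached 5.84. The gap of 0.73 of the group's range exceeds Dixon's 95% critical value for 8 samples. It was the 1 group flagged of 20 examined, and chance flags about 1 in 20.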

How the results depend on the processing

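Of the 10 enzymes, Gpx3, Gpx4, Gpx7, Prdx1 and Sod3 stayed called as higher in all 29 alternatives, and Gpx8 in the 28 that kept it (it is among the dimmest 40% of genes). Their lowest differences were 1.60, 0.90, 0.87, 0.51, 0.49 and 1.05, in that order. The number of enzymes called higher was 6 or 7 throughout. The number called lower was 2 in place of 0 with arrays centred on their medians (Cat and Sod1), and 1 (Sod1) without the dimmest 40% of genes and with eBayes trend and robust options. The paired analysis with a replicate block gave 6 enzymes as higher, with Gpx1 at 0.22 (adjusted p = 0.15) not called. With this block Prdx2, Txn1, Sars, Pex26 and Pex5 also missed the threshold (adjusted p = 0.091, 0.064, 0.053, 0.089 and 0.15), 2 peroxins were lower in place of 5, and the higher counts of selenocysteine genes and Kupffer cell markers were 0. Same-numbered samples correlated at -0.03 to 0.06 in their deviations. Values near 0 cannot exclude a weak shared effect, so whether the numbers pair samples is not settled. Over all genes, 1179 were lower with spike-in centring in place of 2619. With the clock score 1591 genes were higher and 1335 lower. The cause was not tested. Gpx8 lies near background, which limits what its size of difference can tell.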

Other observations

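Both thioredoxin systems, the partners of the peroxiredoxins, were measured, and their values were looked at after the lists were counted. Txn1, the cytosolic thioredoxin, rose by 0.29 ± 0.07 (adjusted p = 0.0061 in limma) and its reductase Txnrd1 by 0.49 ± 0.10 (adjusted p = 5.8e-04). The mitochondrial reductase Txnrd2 fell by 0.42 ± 0.10 (adjusted p = 0.0025), while mitochondrial Txn2, at -0.11 ± 0.10, missed the threshold (adjusted p = 0.48). The difference between the compartments was not tested. The call of Txn1 was lost with the clock score (0.31, adjusted p = 0.062).

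The sestrins, stress-induced regulators, also went different ways. Sesn1 rose by 0.63 ± 0.14 and Sesn3 fell by 0.51 ± 0.13 (adjusted p = 0.0015 and 0.0075 in limma), while Sesn2 differed by -0.11 ± 0.10 (adjusted p = 0.50). With the clock score neither Sesn1 (0.33, adjusted p = 0.24) nor Sesn3 (-0.43, adjusted p = 0.16) passed, and Sesn3 also missed the threshold with spike-in centring (-0.37, adjusted p = 0.097).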
